A study of Mus musculus with 16 samples.

Results

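A set of 6 genes of cyclic GMP signalling that are known from uncommon olfactory sensory neurons was followed across sorted cells of the mouse olfactory mucosa: Gucy2d, Cnga3, Pde2a, Car2, Gucy1b2 and Trpc2. The members are given by gene symbol, and were proposed with earlier results of these data known. Of the 6, 5 were represented by 1 probe set each among 22206 tested probe sets. Trpc2 was matched to no probe set here by symbol, gene identifier or accession, so no level of it was analysed.

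The samples were 16 Clariom S arrays (whole-transcript oligonucleotide arrays). They came from 24 mice, male and female, of the C57BL/6 strain, aged 7 to 12 weeks, which carried the S100a5-tauGFP reporter. In this reporter green fluorescent protein fused to tau reads out S100a5, a calcium-binding protein gene whose expression in olfactory neurons follows their activity. Each mouse stayed alone in a clean air chamber for 40 h at 3.1 L/min, and from 26 h onward received a 10 s pulse every 20 min. The dissociated mucosa of 3 mice was pooled and sorted by fluorescence, which gave 4 groups of 4 arrays: undecanal pools titled GFP+, undecanal pools titled GFP-, vehicle pools titled GFP+ and vehicle pools titled GFP-. Undecanal is an aliphatic aldehyde odorant, and the vehicle was filtered air. All groups shared the strain, the reporter, the chamber and the sort, and the sources used here do not state the sort gates. The 50 to 100 ng of RNA taken per array came from whole fractions, so fewer cells of a type and less RNA per cell cannot be told apart.

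The sample titles and the cell type labels gave opposite GFP signs for all 16 arrays, and the groups here follow the titles. S100a5 itself was lower on the arrays titled GFP+ in 8 of 8 pools. Its log2 level averaged 15.77 ± 0.141 in undecanal pools titled GFP+ and 16.73 ± 0.308 in undecanal pools titled GFP- (SD, n = 4 each). In vehicle pools it averaged 15.66 ± 0.126 in arrays titled GFP+ and 16.58 ± 0.26 in arrays titled GFP- (SD, n = 4 each). S100a5 was thus higher on the arrays that the cell type labels, and not the titles, give as GFP+. Whether the titles or the labels are right was not tested. Every direction below therefore holds for the titles, and would turn round if the cell type labels were right. Omp, the marker of mature olfactory neurons, averaged between 18.8 and 18.85 in the 4 groups.

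In guanylate cyclase D neurons of rodents, the receptor cyclase encoded by Gucy2d makes cyclic GMP, which opens channels built with the Cnga3 subunit. Pde2a encodes a phosphodiesterase that cyclic GMP itself stimulates, and Car2 encodes carbonic anhydrase II, which hydrates CO2 to bicarbonate. These cells project to the necklace glomeruli of the olfactory bulb and are known for responses to CO2, carbon disulfide and the peptides guanylin and uroguanylin. A separate, sparse population of the main epithelium expresses the soluble cyclase subunit Gucy1b2 together with the cation channel Trpc2. Canonical olfactory neurons signal through cyclic AMP instead.

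The 250 bases before the start of 3 genes are printed to set the cyclase and channel subunit that define guanylate cyclase D neurons, both at background here, beside the phosphodiesterase that was well measured. They come from a RefSeq promoter table on build GRCm38.p6, in which 5 of the 6 genes were found; the Car2 promoter was not analysed here. Each is written 5′ to 3′ on the gene's strand. The windows are chr7:98440166-98440415 (plus strand) for Gucy2d, chr1:37218028-37218277 (plus strand) for the most upstream start of Cnga3, and chr7:101421441-101421690 (plus strand) for the most upstream start of Pde2a. Capitals mark GAGGAA or its reverse complement TTCCTC, a core that Ets factors bind.
Gucy2d: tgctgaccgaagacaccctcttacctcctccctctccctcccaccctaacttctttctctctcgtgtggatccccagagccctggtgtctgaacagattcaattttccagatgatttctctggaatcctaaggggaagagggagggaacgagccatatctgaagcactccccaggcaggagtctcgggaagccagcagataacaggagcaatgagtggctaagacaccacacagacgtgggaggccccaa
Cnga3: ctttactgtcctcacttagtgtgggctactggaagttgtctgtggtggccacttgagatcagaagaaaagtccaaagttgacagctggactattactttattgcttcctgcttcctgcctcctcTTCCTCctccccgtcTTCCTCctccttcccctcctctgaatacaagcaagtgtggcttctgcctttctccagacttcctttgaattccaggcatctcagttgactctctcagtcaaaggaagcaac
Pde2a: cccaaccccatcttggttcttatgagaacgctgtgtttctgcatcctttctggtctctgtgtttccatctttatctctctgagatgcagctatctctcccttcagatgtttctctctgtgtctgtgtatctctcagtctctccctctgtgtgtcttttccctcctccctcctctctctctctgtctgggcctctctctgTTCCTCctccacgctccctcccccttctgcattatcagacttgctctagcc
The search covered 3 motifs on both strands: the core TAATTA of homeodomain factors, the Ets core GAGGAA, and the core TGACGT of the cyclic AMP response element. The Cnga3 window held 2 matches to GAGGAA and this Pde2a window held 1, all on the minus strand, and the Gucy2d window held none of the 3 motifs. Of 32851 such windows, 23.3% held GAGGAA, 4.84% TAATTA and 6.47% TGACGT. In the windows named here no matches overlapped. The windows of Gucy1b2 (chr14:62456290-62456539, minus strand) and Trpc2 (chr7:102082866-102083115, plus strand) held 0 matches to GAGGAA, and the Trpc2 window held 1 match to TGACGT.
The GC content was 54.4% for the Gucy2d window, 48.8% for the Cnga3 window and 50.8% for the printed Pde2a window, against a median of 52.4% over all windows. Pde2a had 5 windows, and its 4th reached 68% GC with 19 CpG dinucleotides, against a median of 6 over all windows. The array does not tell which start was used.

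Levels are log2 probe set values as deposited, and the background level was set at log2 4.8. Receptors of the vomeronasal organ and of bitter taste, with 358 probe sets together, set this level: 95% of their group means lay under it. By this level 3 of the 5 measured genes, Pde2a, Car2 and Gucy1b2, were above background, and 64.8% of all tested probe sets were. Rows whose IDs start with MG were taken as negative controls. They reached log2 13.05 at their own 95th percentile, and only Car2 had a group mean above that. Their 5th percentile was 2.85 and their median 5.17. Tested probe sets had a 5th percentile of 2.84, a median of 6.09 and a 95th percentile of 13.5. The MG rows thus spanned nearly the range of the tested probe sets, and they did not set the background level. Levels of different probe sets were not compared with each other, apart from their shares of the marker sums below.

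Gucy2d, the receptor cyclase that gives guanylate cyclase D neurons their name, was below background on all 16 arrays. Its log2 levels were 2.83, 2.77, 2.54 and 2.99 in undecanal pools titled GFP+ and 2.83, 3.24, 2.94 and 2.69 in undecanal pools titled GFP-. In vehicle pools they were 2.62, 2.66, 3.21 and 2.78 in arrays titled GFP+ and 2.9, 2.8, 3.65 and 3.01 in arrays titled GFP-. The 4 groups overlapped, and no fold is given between groups that were all below background.

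Cnga3, the channel subunit opened by cyclic GMP, was likewise below background on all 16 arrays. Its levels were 2.67, 2.93, 2.55 and 3.19 in undecanal pools titled GFP+ and 2.77, 2.84, 3.12 and 2.97 in undecanal pools titled GFP-. In vehicle pools they were 2.79, 2.95, 2.83 and 2.66 in arrays titled GFP+ and 2.79, 3.38, 2.97 and 3.02 in arrays titled GFP-. Again all groups overlapped. With its cyclase and channel subunit both at background, the RNA of guanylate cyclase D neurons was not detectable by these probe sets, and the genes are therefore treated singly below and not as a readout of that cell type. A sparse cell type may lie under what an array of whole fractions can show.

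Gucy1b2, a subunit of soluble guanylate cyclase, was above background in all 4 group means. Its levels were 5.69, 5.53, 4.96 and 5.93 in undecanal pools titled GFP+ and 6.43, 5.73, 5.34 and 5.48 in undecanal pools titled GFP-. In vehicle pools they were 5.01, 6.16, 6.23 and 6 in arrays titled GFP+ and 6.29, 5.74, 5.91 and 6.08 in arrays titled GFP-. The groups overlapped throughout. Their means, from the highest, were 6.01 ± 0.235 in vehicle pools titled GFP-, 5.85 ± 0.569 in vehicle pools titled GFP+, 5.74 ± 0.488 in undecanal pools titled GFP- and 5.53 ± 0.412 in undecanal pools titled GFP+ (SD, n = 4 each). No neighbours in that order differed by more than the spread between their arrays.

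Pde2a was the member that separated the sort fractions. Its levels were 9.53, 9.31, 8.7 and 8.55 in undecanal pools titled GFP+, against 5.62, 5.71, 5.35 and 5.68 in undecanal pools titled GFP-. They were 9.47, 9.09, 9.08 and 8.95 in vehicle pools titled GFP+, against 5.98, 5.14, 5.62 and 6.13 in vehicle pools titled GFP-. All 8 arrays titled GFP+ lay above all 8 arrays titled GFP-. In order, the means were 9.15 ± 0.224 in vehicle pools titled GFP+, 9.02 ± 0.47 in undecanal pools titled GFP+, 5.72 ± 0.44 in vehicle pools titled GFP- and 5.59 ± 0.165 in undecanal pools titled GFP- (SD, n = 4 each). The 2 highest did not differ beyond their spread, nor did the 2 lowest.

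Car2 was well above background on every array, and its fractions lay closer together. Its levels were 14.17, 13.57, 13.26 and 13.35 in undecanal pools titled GFP+, against 12.91, 13.18, 13.08 and 12.99 in undecanal pools titled GFP-. They were 13.81, 13.59, 13.51 and 13.67 in vehicle pools titled GFP+, against 13.16, 13.23, 13.1 and 13.36 in vehicle pools titled GFP-. Within each agent the fractions did not overlap, but the undecanal arrays titled GFP+ overlapped the vehicle arrays titled GFP-. The means, from the highest, were 13.65 ± 0.129 in vehicle pools titled GFP+, 13.59 ± 0.411 in undecanal pools titled GFP+, 13.21 ± 0.112 in vehicle pools titled GFP- and 13.04 ± 0.116 in undecanal pools titled GFP- (SD, n = 4 each). The highest single value, 14.17, was that of undecanal pool 1.

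**Figure D1:**
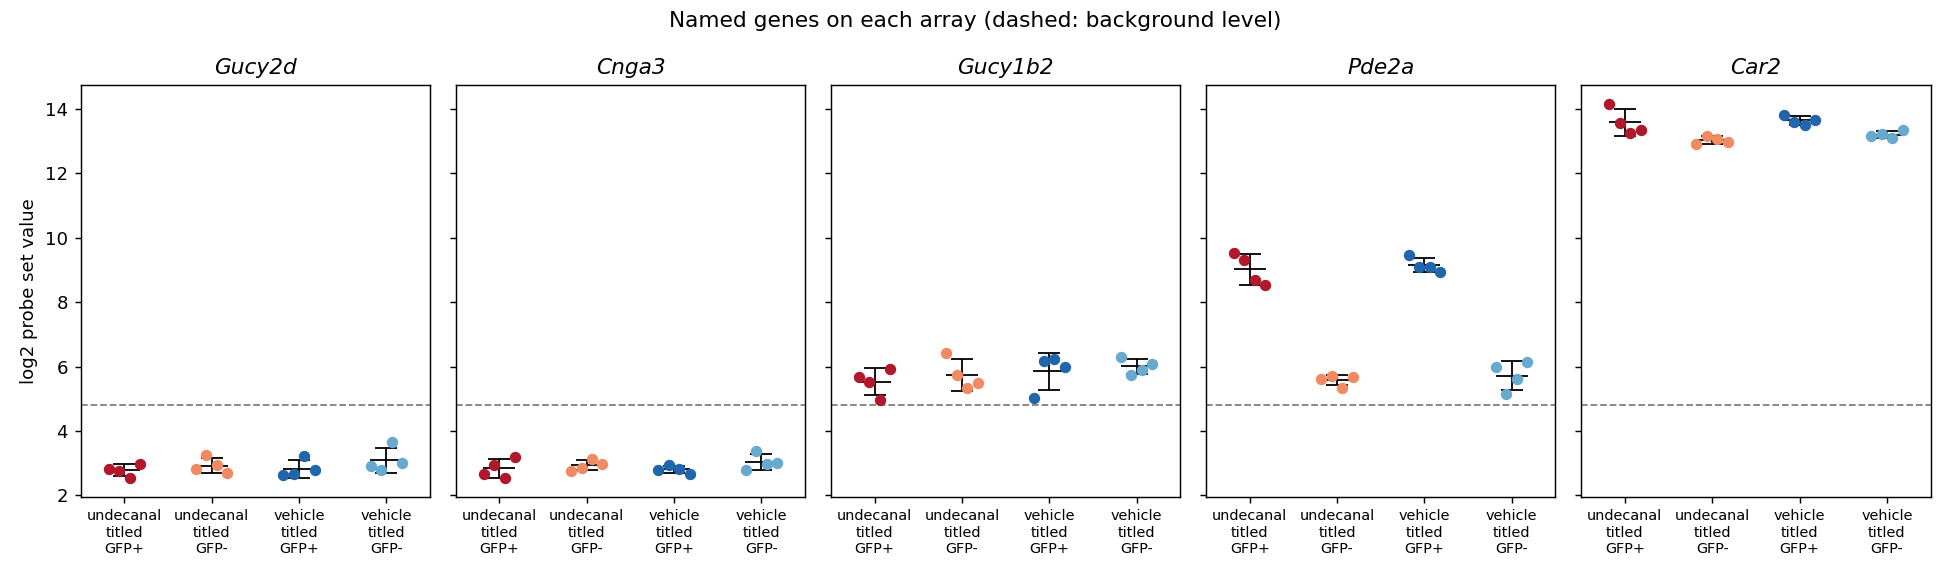
Log2 probe set values of the 5 measured genes on each of the 16 arrays, by group. Points are arrays in the order of their replicate number, bars are the mean and SD of 4 arrays, and the dashed line is the background level of 4.8: Gucy2d and Cnga3 lie under it on every array, and Pde2a separates the arrays titled GFP+ from those titled GFP-.

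The first comparison asked which genes differed between the sort fractions of the same mice, with each agent taken by itself. In vehicle pools 1 of the 5 measured genes passed limma's test at an adjusted p of 0.05, where 13.9% of all probe sets did, 8.82% in the higher direction. That gene was Pde2a, which was higher by 3.43 on the log2 scale in arrays titled GFP+ (SE 0.232, 95% interval 2.94 to 3.92, limma adjusted p = 4.38e-09). This is a 10.8-fold difference between means of 9.15 in arrays titled GFP+ and 5.72 in arrays titled GFP-, and the single pools gave 2.82 to 3.95. Car2 was higher by 0.44 in vehicle pools titled GFP+ and did not pass (SE 0.171, 95% interval 0.08 to 0.8, limma adjusted p = 0.109), although all 4 pools had the higher value in the array titled GFP+ and the groups did not overlap. Across all probe sets the fractions of vehicle pools failed to overlap at 18.1%. Gucy1b2 differed by -0.16 (SE 0.282, 95% interval -0.75 to 0.43, limma adjusted p = 0.77), and 2 of 4 pools had the higher value in the array titled GFP+. For orientation, all probe sets together had a median difference of -0.113.

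In undecanal pools 2 of the 5 measured genes, Pde2a and Car2, were called, both higher, where 13.2% of all probe sets were called and 8.83% were called higher. The fractions of undecanal pools also did not overlap for these 2 genes, as for 17.3% of all probe sets. Pde2a was higher by 3.43 in arrays titled GFP+ (SE 0.232, 95% interval 2.95 to 3.92, limma adjusted p = 4.61e-09), and its 4 pools ranged from 2.88 to 3.9. Car2 was higher by 0.55, which is 1.46-fold (SE 0.171, 95% interval 0.19 to 0.91, limma adjusted p = 0.0411), and its pools ranged from 0.17 to 1.26. Undecanal pool 1 gave the largest of these 4 differences: without it Car2 was higher by 0.31 and was not called (limma adjusted p = 0.28). With the pool as a fixed block the Car2 difference was again 0.55 and was not called (limma adjusted p = 0.0631), and the count of called members fell to 1. With the pool as a random block Car2 was called (limma adjusted p = 0.0241). All groups shared 1 estimate of spread, and without undecanal pool 1 Car2 was also called in vehicle pools (limma adjusted p = 0.0353). Gucy1b2 differed by -0.22 in undecanal pools (SE 0.282, 95% interval -0.81 to 0.38, limma adjusted p = 0.697).

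**Figure D2:**
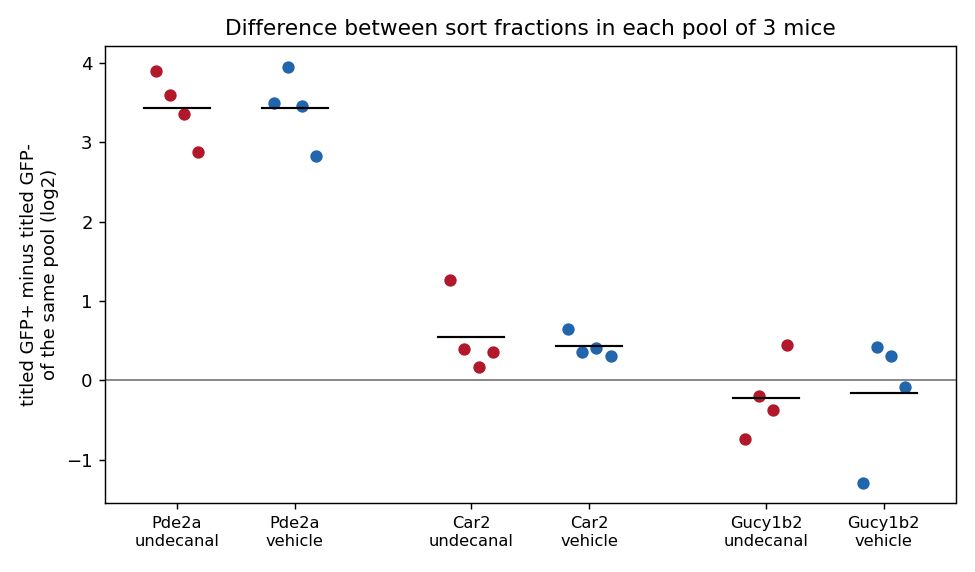
Difference of log2 values, array titled GFP+ minus array titled GFP- of the same pool of 3 mice, for the 3 genes above background. Points are pools, lines are means of 4 pools, and the grey line is no difference: all 8 Pde2a differences lie between 2.82 and 3.95, the Car2 difference of 1.26 in undecanal pool 1 stands above the other Car2 values, and Gucy1b2 falls on both sides of 0.

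The second comparison asked whether undecanal changed these genes within a fraction. None of the 5 passed limma's test in arrays titled GFP+, where 0.0045% of all probe sets did. None passed in arrays titled GFP- either, where 0 of all probe sets did. At an unadjusted p under 0.05, 0 of the 5 genes were found in each fraction, beside 603 of all probe sets in arrays titled GFP+ and 914 in arrays titled GFP-. In arrays titled GFP+, undecanal minus vehicle was -0.12 for Pde2a (95% interval -0.61 to 0.36), -0.06 for Car2 (-0.42 to 0.3) and -0.32 for Gucy1b2 (-0.92 to 0.27). In arrays titled GFP- it was -0.13 for Pde2a (95% interval -0.62 to 0.36), -0.17 for Car2 (-0.53 to 0.19) and -0.26 for Gucy1b2 (-0.86 to 0.33). The intervals leave room for changes of either sign, and the number of arrays limits how small a change could be seen.

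The difference between fractions was also compared between the agents as an interaction. For Pde2a the fraction difference in undecanal pools minus that in vehicle pools was 0 (SE 0.328, 95% interval -0.69 to 0.69), with a limma adjusted p of 1. For Car2 it was 0.11 (SE 0.242) and for Gucy1b2 -0.06 (SE 0.398). The Car2 call in undecanal pools and its absence in vehicle pools are therefore not shown to differ. No member and no other probe set passed, and at an unadjusted p under 0.05 there were 0 of the 5 genes and 584 of all probe sets.

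The related genes were read as counts, family by family, from lists that leave the members out. Of 8 other guanylate cyclases measured, 2 had a group mean above background, and 0 passed in either direction between the fractions of vehicle or of undecanal pools. Their median difference was -0.06 in vehicle pools, and with arrays centred on their medians 4 were called lower in vehicle pools and 5 in undecanal pools. Median centring called 11231 of all 22206 probe sets lower in vehicle pools and 11129 in undecanal pools. The centred counts of each family are to be read beside these, as they follow a shift of the whole table. Of 11 cyclase ligands and regulators, among them the guanylin genes Guca2a and Guca2b, 3 were above background and 0 passed with either agent. With arrays centred on their medians, 8 of them were called lower in vehicle pools and 5 in undecanal pools. Quantile normalization gave 2 lower in vehicle pools, beside 1830 of all probe sets. The 2 cyclic GMP-dependent kinases Prkg1 and Prkg2 were below background and not called, and 0 of 5 other TRPC channels measured passed. With median centring both kinases and all 5 TRPC channels were called lower in vehicle pools, and 1 kinase and 4 TRPC channels in undecanal pools. Of 5 other cyclic nucleotide-gated channel subunits, 0 passed, while median centring called 4 lower in vehicle pools and 3 in undecanal pools. These include Cnga2 and Cnga4, subunits of the canonical olfactory channel, which differed by -0.13 and -0.07 in vehicle pools.

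Among 12 other phosphodiesterases that act on cyclic GMP, 2 were called higher and 2 lower in arrays titled GFP+ of vehicle pools, with a median difference of 0.02. Of all 22206 probe sets 1959 were called higher there and 1138 lower. In undecanal pools 1, Pde3b, was higher and 2 were lower, and the Pde3b call there was lost without undecanal pool 1. Arrays centred on their medians gave 1 higher and 4 lower in vehicle pools, beside 1570 higher and 11231 lower of all probe sets. Pde3b, which cyclic GMP inhibits, was at least 1.66-fold higher in vehicle pools, with means of 5.53 in arrays titled GFP+ and 3.85 in arrays titled GFP- (limma adjusted p = 0.00562). A fold with "at least" has 1 group below background, whose arrays were raised to the background level before averaging. Pde10a, which hydrolyses both cyclic nucleotides, fell by 1.01 in vehicle pools titled GFP+ (limma adjusted p = 0.0175) and fell by 1.5 in undecanal pools titled GFP+. Pde9a, a cyclic GMP-specific enzyme, was higher by 0.85 in vehicle pools titled GFP+ (limma adjusted p = 0.0464), and its difference in undecanal pools was 0.12, not called. The Pde9a call was lost in 9 of 17 alternative settings, including the omission of any 1 vehicle pool and of undecanal pool 2. The Pde10a call in vehicle pools was lost in 4 of 17, among them the omission of vehicle pool 1 and of vehicle pool 4.

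Car1, the carbonic anhydrase of red blood cells, stood out among 15 other carbonic anhydrases. It averaged 9.36 ± 0.942 in vehicle pools titled GFP+ and 3.87 ± 0.836 in vehicle pools titled GFP- (SD, n = 4 each), at least 23.4-fold higher (limma adjusted p = 5.91e-07). In undecanal pools it averaged 9.04 ± 1.18 in arrays titled GFP+ and 3.89 ± 0.519 in arrays titled GFP- (SD, n = 4 each), at least 18.9-fold higher. The other 14 were not called in vehicle pools, and in undecanal pools Car8 was also called, at 5.32 in arrays titled GFP+ and 4.08 in arrays titled GFP-. With arrays centred on their medians, 5 of the 15 were called lower in vehicle pools, beside 11231 of all 22206 probe sets. Car1 was still called higher. In the RefSeq gene order Car3, Car1 and Car13 follow each other on 1 side of Car2 on chromosome 3. Car3 differed by -0.01 and Car13 by 0.18 in vehicle pools, both below background. Gm9733, the gene on the other side of Car2, was higher by 2.17 in vehicle pools titled GFP+ (limma adjusted p = 0.000354). None of the measured genes among the 3 nearest on each side of Gucy2d, Cnga3, Pde2a or Gucy1b2 was called with either agent.

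Ms4a genes encode 4-pass membrane proteins, some of which are chemoreceptors of guanylate cyclase D neurons in mice and others surface proteins of leukocytes. Of 18 Ms4a genes measured, 9 were above background. In arrays titled GFP+, 8 were higher and 0 lower in vehicle pools (median difference 0.74), where 8.82% of all probe sets were higher. In undecanal pools 10 were higher and 0 lower (median difference 1.01), where 8.83% of all probe sets were higher. Arrays centred on their medians gave 8 higher and 4 lower in vehicle pools, beside 1570 higher and 11231 lower of all 22206 probe sets. Ms4a6c was at least 4.08-fold higher in vehicle pools, with means of 6.83 in arrays titled GFP+ and 3.75 in arrays titled GFP-. Ms4a4c was 6.32-fold higher, with 8.73 in arrays titled GFP+ and 6.07 in arrays titled GFP-. Ms4a6b was at least 2.26-fold higher, with 5.98 in arrays titled GFP+ and 3.59 in arrays titled GFP-. One called gene, Ms4a8a, was below background in both fractions. On the same arrays 11 of 11 monocyte and macrophage markers were called higher, as given below, and Ms4a7 is in both lists. Their part in the Ms4a result was not tested.

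Cyclic AMP transduction genes of canonical olfactory neurons were all above background, and 3 of 9 were lower in vehicle pools titled GFP+ (median difference -0.24), against 2 in undecanal pools. Of all 22206 probe sets 1138 were lower in vehicle pools and 969 in undecanal pools. The sodium-calcium exchanger Slc24a4 fell by 0.6 in vehicle pools titled GFP+, Pde4a, a cyclic AMP-specific phosphodiesterase, by 0.53, and the calcium-activated chloride channel Ano2 by 0.51. The Slc24a4 call in vehicle pools was lost without vehicle pool 1, and the Pde4a call there without vehicle pools 1, 2 or 3 and without undecanal pool 2. In undecanal pools Ano2 was called in 11 of 17 alternative settings and Slc24a4 in 6 of 17. Neither was called there when undecanal pool 1, 2 or 3 was left out. With arrays centred on their medians all 9 were called lower in vehicle pools, as were 11231 of all 22206 probe sets. With arrays centred on the mature neuron list 0 of the 9 were called lower. However, 5 of the 9 genes are also in that list, so this centring moves them towards 0 by construction.

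**Figure D3:**
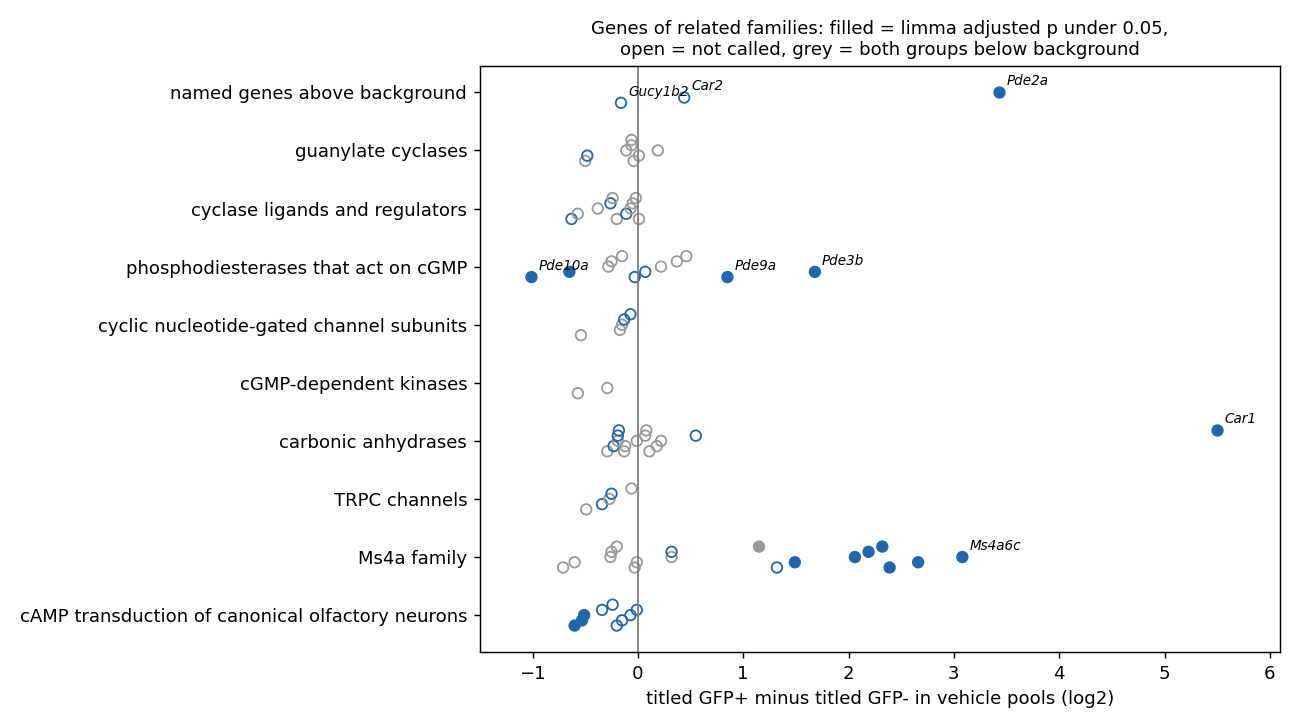
Difference of log2 values, titled GFP+ minus titled GFP- in vehicle pools, for each gene of the related families, 1 row per family. Filled points passed limma's test, open points did not, and grey points were below background in both fractions. A separate row holds the 3 members above background, with Pde2a at 3.43, and the family rows leave the members out. Car1 at 5.5 stands apart from the other carbonic anhydrases, and 8 Ms4a genes lie to the right of 0 and are filled.

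The same arrays carried markers of several other cell types, given here beside Pde2a and Car2 as sums of linear values over each list. All 11 monocyte and macrophage markers were called higher in arrays titled GFP+ with both agents. Of all probe sets, 8.82% were called higher in vehicle pools and 8.83% in undecanal pools. Their summed level was 14000 to 34600 in undecanal pools titled GFP+ and 234 to 342 in undecanal pools titled GFP-. In vehicle pools it was 22500 to 30500 in arrays titled GFP+ and 218 to 390 in arrays titled GFP-. Lyz2, the lysozyme of myeloid cells, averaged 14.18 in vehicle pools titled GFP+ and 5.55 in vehicle pools titled GFP- on the log2 scale. Ly6c2 averaged 12.48 and Cd14 7.86 in vehicle pools titled GFP+. Most of the sum on arrays titled GFP+ came from Lyz2 and Ly6c2, so it says little of the other markers. All 9 neutrophil markers were also called higher with both agents. The neutrophil sum was 264000 to 410000 in undecanal pools titled GFP+ and 216 to 341 in undecanal pools titled GFP-. It was 263000 to 444000 in vehicle pools titled GFP+ and 245 to 421 in vehicle pools titled GFP-.

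Erythroid and microvillar cell markers moved the same way. Of 5 erythroid markers measured, 3 were called higher in arrays titled GFP+ with each agent, Car1 among them. Here too 8.82% of all probe sets were higher in vehicle pools and 8.83% in undecanal pools. The erythroid sum was 1640 to 6240 in undecanal pools titled GFP+, 241 to 465 in undecanal pools titled GFP-, 2250 to 4800 in vehicle pools titled GFP+ and 316 to 528 in vehicle pools titled GFP-. Of 5 markers of ionocyte-like microvillar cells, 4 were higher with each agent. Their sum was 15800 to 24200 in undecanal pools titled GFP+, 1880 to 3010 in undecanal pools titled GFP-, 8550 to 21100 in vehicle pools titled GFP+ and 2080 to 2920 in vehicle pools titled GFP-. Most of this sum came from Coch in every group, which averaged 13.56 in vehicle pools titled GFP+ and 11.19 in vehicle pools titled GFP-. Foxi1, the transcription factor of these cells, averaged 9.98 in vehicle pools titled GFP+ and 5.87 in vehicle pools titled GFP-. All 6 tuft-like microvillar cell markers were higher with each agent, Trpm5 by 3.54 in vehicle pools, although Chat was below background in every group. The array titled GFP+ of undecanal pool 1, which had the highest Car2 value, also had the highest sum of all 16 arrays for 8 of the 13 marker lists. These were the erythroid, ionocyte-like, tuft-like, sustentacular, monocyte and macrophage, lymphocyte, endothelial and osteoclast lists. In undecanal pools titled GFP+ only 2 of 8 endothelial markers and 1 of 4 osteoclast markers were above background, so those 2 sums say little.

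Endothelial cells express Pde2a, and their markers were near background. The endothelial sum was 126 to 170 in undecanal pools titled GFP+ and 121 to 135 in undecanal pools titled GFP-. It was 133 to 153 in vehicle pools titled GFP+ and 124 to 140 in vehicle pools titled GFP-. Of 8 endothelial markers, 2 or fewer were above background in any group, 0 were called in vehicle pools and 1, Pecam1, in undecanal pools. Of all probe sets, 13.9% were called in vehicle pools and 13.2% in undecanal pools. Vwf was above background in every group, with means between 5.16 and 5.31. Cdh5, Kdr, Emcn, Flt1 and Cldn5 were below background in every group.

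Of 7 lymphocyte markers, 4 were higher in arrays titled GFP+ of vehicle pools and 6 in those of undecanal pools. For this and the next lists, 8.82% of all probe sets were higher in vehicle pools and 8.83% in undecanal pools. Of 4 osteoclast markers, 1, Acp5, was higher with each agent. Of 6 sustentacular cell markers 2 were higher, and of 5 markers of ensheathing glia and oligodendrocytes 0 passed. Among 9 immature neuron markers 5 were higher in vehicle pools and 3 in undecanal pools. Among 10 mature neuron markers 1, Ano2, was lower with each agent. Its call in undecanal pools was lost without undecanal pool 1, 2 or 3. Median centring called all 10 lower, as it did 11231 of all 22206 probe sets in vehicle pools and 11129 in undecanal pools. Of 325 vomeronasal neuron genes, 27 had a group mean above background. The 323 vomeronasal receptor probe sets are most of the 358 that set this level. That count therefore follows largely from how the level was set and says little of vomeronasal RNA. Of the 325, 0 were higher, while 17 were lower in vehicle pools and 11 in undecanal pools. Beside these, 1138 and 969 of all 22206 probe sets were lower. The vomeronasal counts moved with the scaling, to 181 and 155 lower with median centring, beside 11231 and 11129 of all probe sets. With arrays centred on the mature neuron list they were 0 and 2 lower, beside 498 and 534. The part of these cell types in the Pde2a and Car2 values was not tested.

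**Figure D4:**
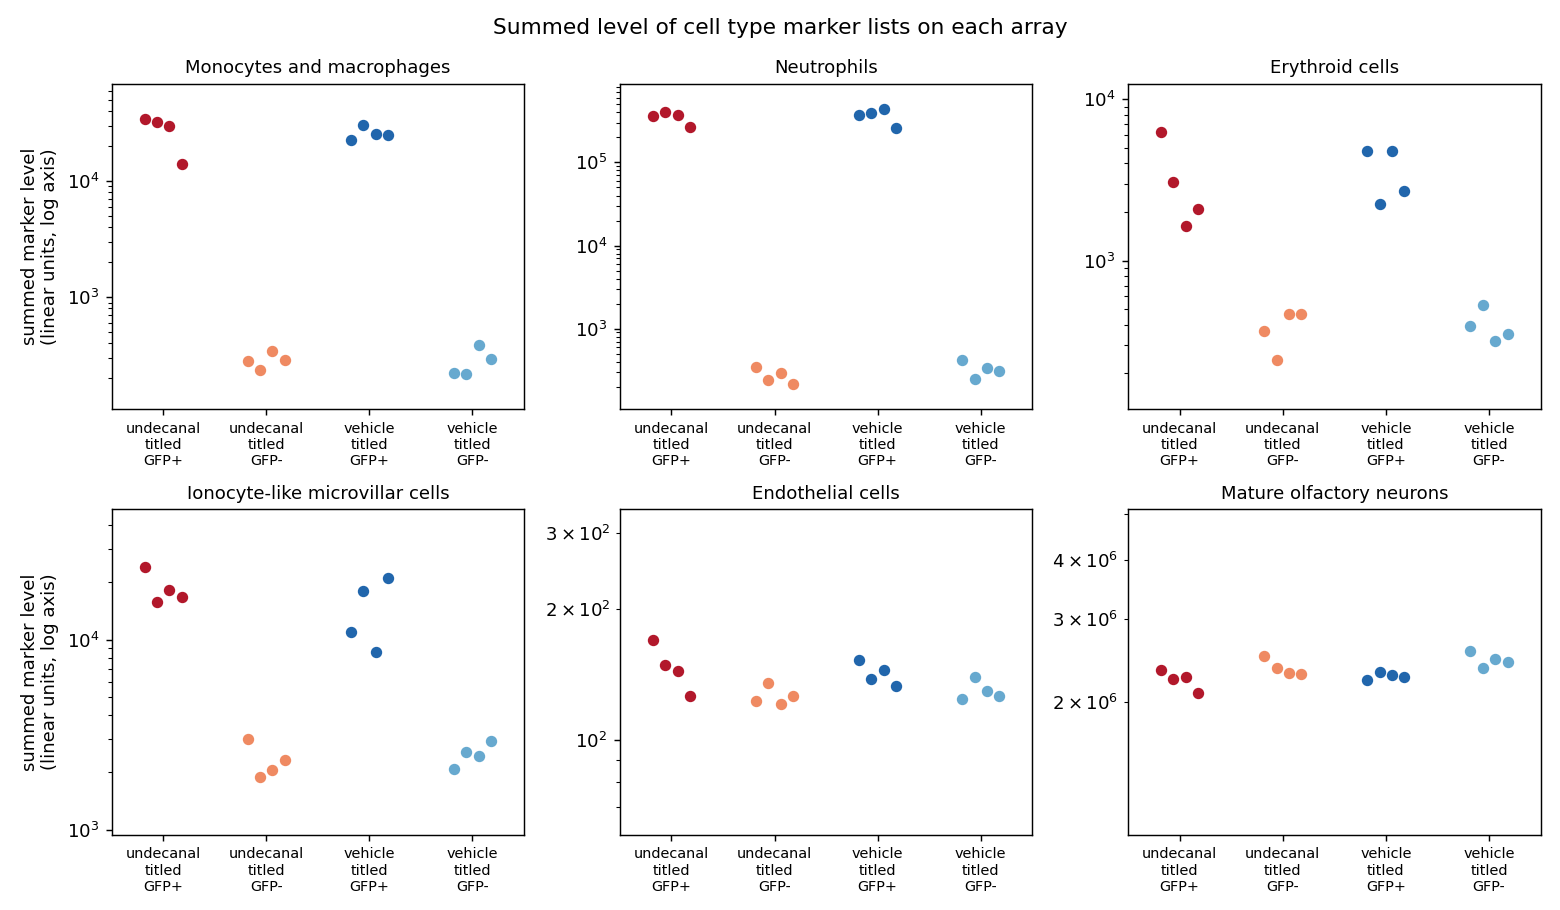
Summed linear values of 6 marker lists on each of the 16 arrays, by group, on log axes. Points are arrays: the monocyte and macrophage, neutrophil, erythroid and ionocyte-like sums are higher on every array titled GFP+. Endothelial sums range from 121 to 170 over all groups. Mature neuron sums are 2220000 to 2310000 in vehicle pools titled GFP+ and 2360000 to 2560000 in vehicle pools titled GFP-. In undecanal pools they overlap, at 2090000 to 2340000 in arrays titled GFP+ and 2290000 to 2500000 in arrays titled GFP-.

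The genes whose values followed Pde2a most closely over the 16 arrays were sought among 12965 probe sets with 1 gene symbol and a group mean above background. Likeness was the root mean square difference after each gene was centred on its own mean, whose median over all candidates was 1.81. Tln1, which encodes the adhesion adaptor talin 1, was closest at 0.215 and averaged 11.31 in vehicle pools titled GFP+ and 7.7 in vehicle pools titled GFP-. The odorant receptor Olfr1395 came next at 0.233, with 15.13 in vehicle pools titled GFP+ and 11.49 in vehicle pools titled GFP-, and its probe set may share signal with close paralogs. Abracl followed at 0.243, with 8.32 in vehicle pools titled GFP+ and 5.1 in vehicle pools titled GFP-. These values describe a shared pattern over 4 groups and nothing further.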

How the data were processed

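RNA of sorted cells was measured on 16 arrays, and groups followed the sample titles. The authors deposited log2 summaries per probe set. The submitters' processing notes name Affymetrix Expression Console. Its version, the algorithm and the build behind the annotation are not given in the sources used. Columns for all 16 samples were used. Of 28846 rows, 6640 control rows, 6546 of them taken as negative controls by their IDs, were removed. This left 22206 probe sets for testing. The annotation of the platform named 1 gene for 19572 probe sets, none for 2634 and several for 0, and all 19572 matched the RefSeq table of GRCm38.p6 by gene identifier.

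The deposited values were fitted without further scaling by 1 linear model with 4 group means, using lmFit and eBayes of limma 3.58.1 under R 4.3.3. The contrasts were titled GFP+ minus titled GFP- within each agent, undecanal minus vehicle within each fraction, and their interaction. Adjustment was by the Benjamini-Hochberg method across the 22206 probe sets, and calls were made at 0.05. Intervals are 95% intervals of the fit. The procedure was tested on simulated data. Figures were drawn with matplotlib 3.10.9.

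The members and gene lists were chosen with earlier results of these data known. Named were the members, S100a5 and Omp, up to 3 genes per related family by size of the difference among those passing in vehicle pools, up to 3 markers per cell type by mean level, and the 3 genes most like each member called with both agents. The text gives part of these markers. Trpc2 is not analysed here for lack of a matched probe set. Prkg1, Prkg2, Guca2a, Guca2b, Cnga2, Cnga4, Car3, Car8, Car13, Gm9733, Ms4a7, Ms4a8a, Chat and the endothelial markers at background fall outside the rule and were named after their values were seen.

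Since 24 mice in pools of 3 give 8 pools, same-numbered arrays of 1 agent were taken as fractions of the same mice. Within pools, deviations from group means correlated at 0.071 to 0.373 over 14396 probe sets. Nothing in the sources used here gives scan dates or other batches. Arrays have no sequencing depth, so the number of arrays limits the precision. No arrays held identical values, and arrays of a group correlated at 0.989 to 0.993. The alternatives tried were other scalings, a filter on dim probe sets, other eBayes and weighting options, fitting fewer groups, pool blocks, another adjustment, other background sets and the omission of each pool.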

Additional observations from a re-analysis of the deposited data

Results flagged for a closer look

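Among 17 genes in 4 groups of 4 arrays each, 3 of 68 groups held an array far from the others, its gap to the nearest array, as a share of the group's range, being above Dixon's critical value. Chance marks about 1 group in 20. In vehicle pools titled GFP-, pool 2 was lowest for Omp at 18.71, with the next array at 18.87 (gap over range 0.989). The same array was lowest for Ano2 at 17.26, with the next at 17.41 (gap over range 0.88). In undecanal pools titled GFP+, pool 3 was lowest for Pde4a at 14.08, with the next array at 14.23 (gap over range 0.838). None of the 5 measured members had such an array in any group.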

How the results depend on the processing

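The Pde2a difference between fractions kept its direction and its call under all 18 alternatives with each agent, at 3.08 to 3.64 in vehicle pools and 3.08 to 3.62 in undecanal pools. The count of members called in vehicle pools was 1, and became 3 with arrays centred on their medians, which added Gucy2d at -0.63 and Cnga3 at -0.59, both below background, and 2 with arrays centred on the mature neuron list, which added Car2 at 0.64. Leaving out 1 pool at a time gave 1 to 2. In undecanal pools the count was 2, and became 1 with array weights (Car2 0.49, limma adjusted p = 0.0652), with only the groups compared (0.55, 0.119), with the pool as a fixed replicate block (0.55, 0.0631) and with the Benjamini-Yekutieli adjustment (0.55, 0.435). It was 1 to 2 when 1 pool was left out. It was 3 with arrays centred on their medians, where Gucy2d and Cnga3 were called lower and Car2, at 0.19, was not called (limma adjusted p = 0.304). Car2 in undecanal pools was called in 6 of 18 alternatives, with adjusted p from 0.0072 to 0.435. It was lost without undecanal pool 1, 2 or 4 and without any 1 vehicle pool, and kept without undecanal pool 3. The fixed block changed no other call of a member.

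Some small differences that were not called changed sign. Gucy1b2 between fractions of vehicle pools was 0.04 with arrays centred on the mature neuron list, and -0.35 to 0.22 when 1 pool was left out. The Pde2a interaction was -0.02 with quantile normalization, -0.05 with centring on mature neurons and -0.2 to 0.19 when 1 pool was left out. With 1 pool left out, the Car2 interaction was -0.13 to 0.24 and the Gucy1b2 interaction -0.43 to 0.13. Undecanal minus vehicle was then -0.29 to 0.03 for Pde2a and -0.25 to 0.05 for Car2 in arrays titled GFP+, and -0.32 to 0.01 for Pde2a in arrays titled GFP-. The cause of these changes was not tested.

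Scaling moved the split of all calls. In vehicle pools 1959 probe sets were higher and 1138 lower as deposited, 1570 and 11231 with median centring, 1876 and 1830 with quantile normalization, and 2708 and 498 with centring on mature neurons. Over all probe sets the median difference was -0.469 with median centring and -0.113 as deposited. In undecanal pools the splits were 1960 and 969 as deposited, 1584 and 11129, 1869 and 1752, and 2387 and 534 in the same order. With the rows taken as negative controls as background, 1 member, Car2, lay above it in place of 3. With bitter taste receptors alone the count stayed at 3. Choosing the probe set with the lowest mean was not run, since 0 members had several.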
